A study of Mus musculus with 4 samples.

Results

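The m6A reader genes encode proteins that bind m6A (adenosine methylated at its N6 position), the most common internal mark of mRNA, and their own mRNAs were examined here for m6A. The 8 genes were taken by name, 5 with a YTH domain (Ythdf1, Ythdf2, Ythdf3, Ythdc1 and Ythdc2) and 3 of the IGF2BP family (Igf2bp1, Igf2bp2 and Igf2bp3), out of 21866 protein-coding genes of GENCODE M21. Every peak overlapping an exon of these genes by at least 1 bp (mm10) was used, which gave 16 of 38533 peaks in replicate 1 and 16 of 30134 in replicate 2. The peaks came from m6A-seq of whole brain of 4-week-old mice, in which fragmented mRNA was recovered with a polyclonal anti-m6A antibody (IP) and sequenced beside RNA without this step (input). The series holds 4 samples, m6A IP replicates 1 and 2 and input replicates 1 and 2. The labels give the strain as C57BL/6J for all 4 samples and the series text calls the mice Prrc2a flox/flox, which is the unrecombined allele. There was no treatment and no second genotype. The methods call the replicates biological, and neither the number of animals behind each nor their sex is given for this assay. Fold enrichment below is the linear ratio of IP over input that the authors' peak caller gave each peak, and shared peaks are those with an overlapping peak in the other replicate. The lists hold no read counts, so the depth is unknown and the differences below carry no test. Whole brain mixes many cell types, and a peak list does not tell them apart.

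The YTH domain holds a pocket that fits the methylated adenosine. Ythdf1, Ythdf2 and Ythdf3 are closely related cytoplasmic proteins. Ythdf2 is known for bringing the CCR4-NOT deadenylase to methylated mRNA, which is then degraded, while Ythdf1 has been linked to translation and Ythdf3 to both. Ythdc1 is the nuclear reader, with roles in splicing and export, and Ythdc2 is a helicase needed in germ cells. The IGF2BP proteins have no YTH domain and bind RNA through KH domains, and they are known for stabilising their targets. The mark itself is placed on the A of short motifs of which GGACT is the best known, mostly in long internal exons and near stop codons.

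Of the 8 reader genes, 5 had a shared exonic peak. These were all 5 YTH genes, while no exon of Igf2bp1, Igf2bp2 or Igf2bp3 had a peak in either list. For comparison, 45.5% of all protein-coding genes had a shared exonic peak. An exonic peak was present in 54.4% of protein-coding genes in replicate 1 and in 49.5% in replicate 2, and 43.2% had none in either list. Of the 16 exonic reader peaks of each replicate, 15 were shared, which is 93.8% (95% Wilson interval 71.7 to 98.9, over peaks). The interval takes the peaks as independent, although they come from 5 genes and 8 of them from Ythdc1. It is given as a description only. Of all peaks, inside and outside exons, 60.0% were shared in replicate 1 and 77.0% in replicate 2. These shares are not over the same kind of peak as that of the readers, which leaves out introns. Of the intronic peaks of the reader genes, 3 of 6 were shared in replicate 1 and 3 of 3 in replicate 2. The Ythdf paralogs had 7 exonic peaks in each replicate, all of them shared. Ythdc1 had 8 peaks in each replicate, of which 7 were shared, and Ythdc2 had 1 shared peak.

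The sequences below carry the comparison of the Ythdf paralogs. They were read from GRCm38 on the strand of each gene, 5′ to 3′, and are written with T for U. The capitals mark a GGACT motif, or the 5 letters aligned to it in a paralog. The first set is the GGACT that Ythdf1 and Ythdf2 hold at the same codon of their aligned coding sequences, with the aligned stretch of Ythdf3. The sites lie at chr2:180910958-180910982 (minus strand), chr4:132204403-132204427 (minus strand) and chr3:16205129-16205153 (plus strand), all in coding sequence (CDS).
Ythdf1 codon 484: agtcccctgtGGACTacggcaccag
Ythdf2 codon 478: aatctgctgtGGACTacaacacatg
Ythdf3 codon 495: agtctgttgtAGACTataatgctta

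Of the 25 bases, 18 were identical between Ythdf1 and Ythdf2, 17 between Ythdf2 and Ythdf3, and 13 between Ythdf1 and Ythdf3. Ythdf3 has AGACT at this place. The second set is the only GGACT of the Ythdf3 mRNA, with the stretches of Ythdf1 and Ythdf2 aligned to it, of which neither holds the motif. These lie at chr3:16204257-16204281 (plus strand), chr2:180911761-180911785 (minus strand) and chr4:132205263-132205287 (minus strand).
Ythdf3 codon 204: aggcatgactGGACTgaaaattggt
Ythdf1 codon 216: gggcatggttGGCCTgaagattggg
Ythdf2 codon 191: agggatggcaGCACTgaaactaggt

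Both paralog stretches were identical to that of Ythdf3 at 19 of 25 bases. The third set holds the pair of GGACT motifs under the stop codon peak of Ythdf2, at chr4:132186832-132186856 and chr4:132186751-132186775 (minus strand). They lie in the 3′ UTR, 80 and 161 nt past the stop codon.
Ythdf2 first motif past the stop codon: aagaaaattaGGACTttttttctta
Ythdf2 second motif past the stop codon: aaaagacataGGACTtaactggaaa

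The long internal exon of each Ythdf gene was examined first, because it holds most of the coding sequence. Exons and codons are numbered on the annotated transcript with the longest CDS, and other transcripts can give other numbers. Ythdf1 (ENSMUSG00000038848, chr2:180904377-180920949, minus strand) had a single peak in each replicate. Its fold enrichment was 6.17 in replicate 1 and 2.85 in replicate 2. Both peaks ran from 180910687 to 180912207, 1521 nt, and these are exactly the ends of exon 5, which holds 86.4% of the CDS. Ends this exact were rare. Both ends of a peak lay on the ends of an exon for 91 peaks in replicate 1 (0.236%) and 268 in replicate 2 (0.889%). Among peaks of at least 1000 nt this held for 5 of 1705 in replicate 1 and 13 of 1468 in replicate 2.

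Ythdf2 (ENSMUSG00000040025, chr4:132184912-132212303, minus strand) had a pair of peaks in its long exon 4, 1584 nt, and a weaker one over the stop codon. The strongest peak lay at 132204126-132205083 in replicate 1, with a fold enrichment of 4.45, and at 132204196-132205047 in replicate 2, with 3.24. In replicate 1 it covered codons 255 to 572, and codons 267 to 551 in replicate 2. The second peak of the exon lay nearer the start codon, over codons 84 to 209 in replicate 1 (2.29) and over codons 96 to 195 in replicate 2 (2.02). The strongest peak holds the GGACT of codon 478, while the GGACT of codon 28 lay outside every peak.

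Ythdf3 (ENSMUSG00000047213, chr3:16183212-16217037, plus strand) had 1 peak over its long exon 5, 1599 nt, and further peaks in its 5′ UTR and over its stop codon. The exon 5 peak lay at 16203976-16205560 in replicate 1, with a fold enrichment of 3.72, and at 16204100-16205488 in replicate 2, with 3.06. Codons 107 to 589 were covered in replicate 1 and codons 148 to 589 in replicate 2, and the peak ran 136 and 64 nt past the exon into the intron. The peak holds both the GGACT of codon 204 and the AGACT of codon 495.

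**Figure D1:**
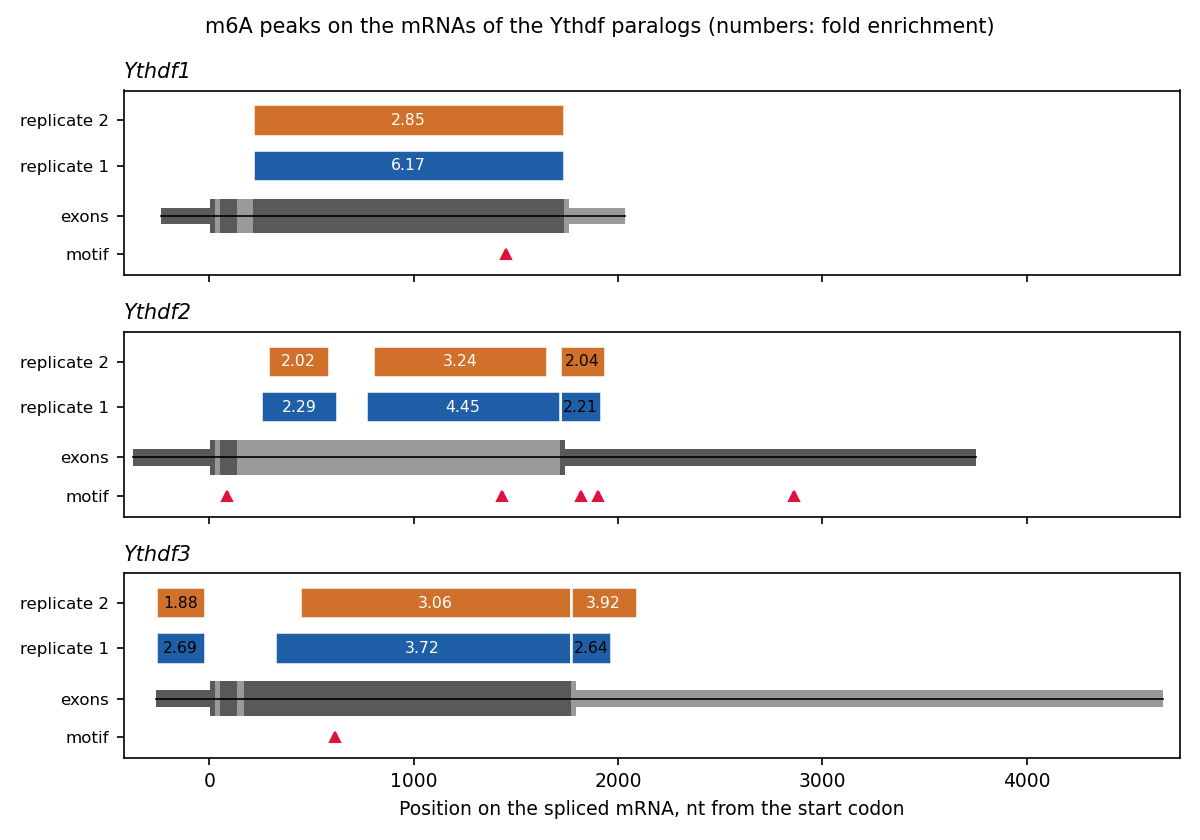
Peaks of Ythdf1, Ythdf2 and Ythdf3 on their spliced mRNAs, in nt from the start codon. Bars are peaks of replicate 1 (blue) and replicate 2 (orange) with their fold enrichment, grey boxes are exons in alternating shades (thick where coding), and red triangles are GGACT motifs. In all 3 genes the longest bar lies in the long coding exon, and Ythdf1 alone lacks a bar over the stop codon.

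The shared bases covered 100% of exon 5 of Ythdf1, 72.7% of exon 4 of Ythdf2 and 82.9% of exon 5 of Ythdf3. All 3 exons had a shared peak, and of the 764 protein-coding genes with an internal coding exon of at least 1000 nt, 68.7% had a shared peak in it. The median covered share of those 525 exons with a shared peak was 59.7%. Of all 764 long exons, with or without a peak, 11 (1.44%) were covered in full. Of the same 764, 20.7% were covered to a larger share than that of Ythdf2 and 12.3% than that of Ythdf3. Among all peaks, 404 in replicate 1 and 396 in replicate 2 were longer than the Ythdf1 peak.

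The paralogs were then compared codon by codon, after aligning the proteins encoded by the transcripts with the longest CDS. Identity of aligned residues was 70.1% between Ythdf1 and Ythdf2, 71.9% between Ythdf1 and Ythdf3 and 71.8% between Ythdf2 and Ythdf3. Of 548 codons aligned in all 3 genes, 323 (58.9%) lay under a shared peak in each of them. A further 88 codons were covered in Ythdf1 and Ythdf3 and not in Ythdf2, mostly in the gap between the peaks of exon 4, 37 in Ythdf1 and Ythdf2 and not in Ythdf3, and 51 in Ythdf1 alone. The 51 lay nearest the start of the long exon, at codons 72 to 122 of Ythdf1. In replicate 2 neither other gene had a peak there, while the peaks of replicate 1 reached into the end of this stretch. The last 6 of the aligned codons were covered in Ythdf2 and Ythdf3 through their stop codon peaks and not in Ythdf1. No gene had a shared peak over the remaining 43, all within the first 71 codons.

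**Figure D2:**
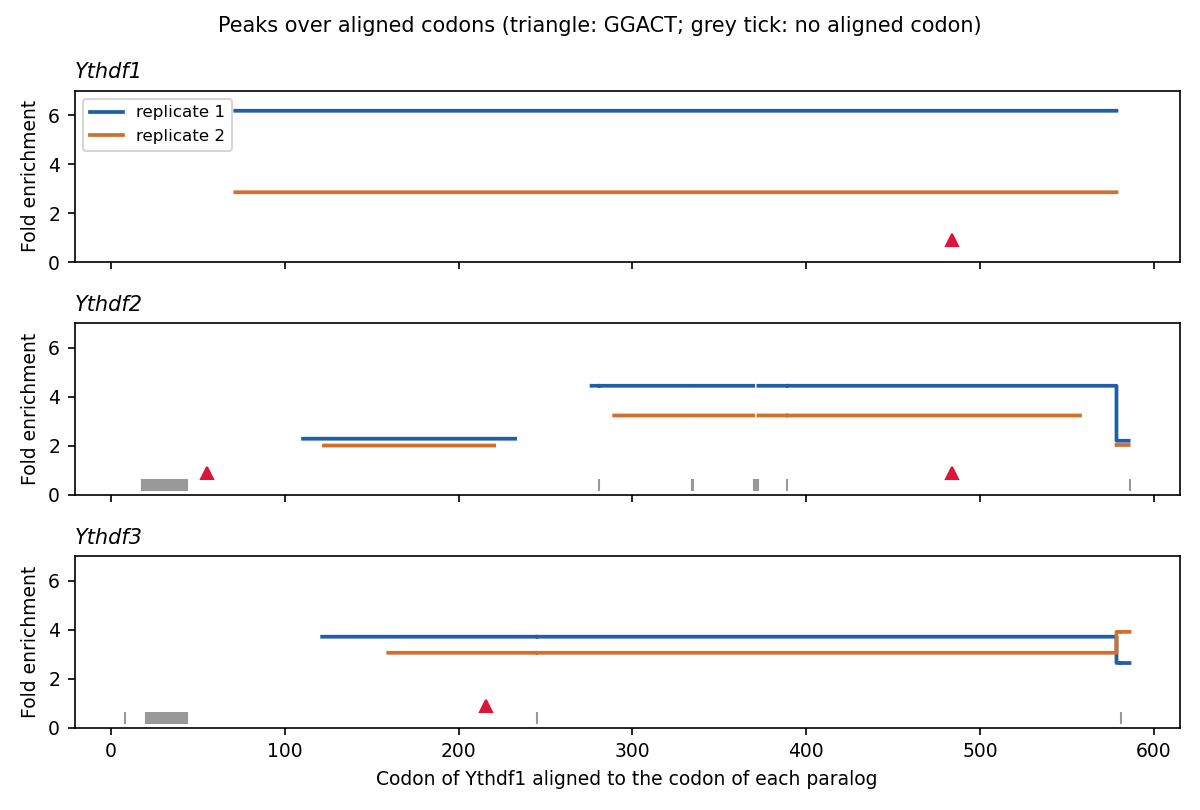
Fold enrichment of the peak over each codon of Ythdf2 and Ythdf3, placed at the Ythdf1 codon it aligns with (lines, blue for replicate 1, orange for replicate 2, no line where there was no peak). Red triangles are GGACT motifs and grey ticks are Ythdf1 codons without an aligned codon. The lines of all 3 genes overlap in the second part of the coding sequence, and the triangles of Ythdf1 and Ythdf2 share a position at codon 484 of Ythdf1.

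The strongest shared peak of a gene was taken as the pair of overlapping peaks whose lower value was highest, which is the long exon peak in all 3 paralogs. Its fold enrichment did not order the paralogs in the same way in both replicates. In replicate 1 the order was Ythdf1 (6.17), Ythdf2 (4.45), Ythdf3 (3.72). In replicate 2 it was Ythdf2 (3.24), Ythdf3 (3.06), Ythdf1 (2.85). On the log2 scale the mean of both replicates was 2.07 ± 0.79 (SD, n = 2) for Ythdf1, 1.93 ± 0.32 for Ythdf2 and 1.75 ± 0.20 for Ythdf3. For each pair of paralogs the difference of the means was smaller than the larger of the SDs. These SDs also hold the general shift between the replicates. Ythdf2 stood above Ythdf3 in both replicates, and it was the place of Ythdf1 that changed. With 2 replicates the order was not tested. Fold enrichment was lower in replicate 2 in general, with a median over all peaks of 2.88 in replicate 1 and 2.20 in replicate 2. Relative to these medians Ythdf1 still moved most, from 2.14 times the median to 1.29, while Ythdf2 went from 1.55 to 1.47 and Ythdf3 from 1.29 to 1.39. Replicate 1 was higher in 11 of 16 overlapping reader pairs (68.8%), against 77.6% of 23901 overlapping pairs in all. The median ratio of replicate 1 over replicate 2 was 1.18 for the reader pairs and 1.29 for all.

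**Figure D3:**
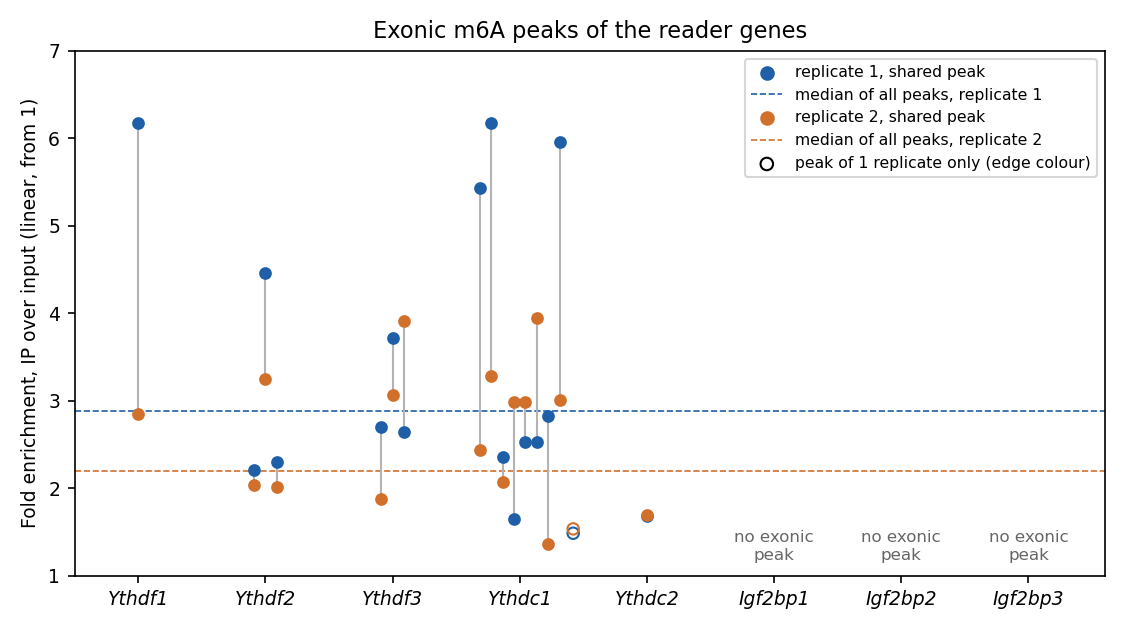
Fold enrichment (linear axis from 1) of every exonic peak of the 8 reader genes. Grey lines join overlapping peaks of replicate 1 (blue) and replicate 2 (orange), a peak that overlaps 2 others is drawn with each, open circles are peaks of a single replicate, and dashed lines are the medians of the lists, 2.88 and 2.20. Ythdf1 has the widest gap among the Ythdf paralogs, and the Igf2bp genes have no point.

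A peak over the stop codon was found in both replicates in 3 of the 8 reader genes, Ythdf2, Ythdf3 and Ythdc1, while a shared stop codon peak was present in 23.3% of all protein-coding genes. In Ythdf2 it lay at 132186748-132187107 (replicate 1, 2.21) and 132186731-132187056 (replicate 2, 2.04). In Ythdf3 it lay at 16213792-16214154 (replicate 1, 2.64) and 16213822-16214278 (replicate 2, 3.92). The stop codon peak of Ythdf3 was weaker than its exon 5 peak in replicate 1 and stronger in replicate 2, so that this order was not settled. In both genes the last exon holds just 24 coding nt, so that nearly all of the exonic part of these peaks was 3′ UTR. They also reached 160 and 109 nt (Ythdf2) and 163 and 133 nt (Ythdf3) into the intron before the last exon. On the spliced mRNA the stop codon peak directly follows the long exon peak in replicate 1 of Ythdf2 and in both replicates of Ythdf3. Whether such neighbours stem from the same fragments was not tested. Ythdf1 has a last exon of the same build, with 27 coding nt, and had no peak there.

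Over the whole mRNA with the longest CDS, shared peaks covered 66.9% of Ythdf1-202, 32.7% of Ythdf2-203 and 35.7% of Ythdf3-202. Shares on other annotated transcripts were not worked out and can differ. The 3′ UTR is 272 nt in Ythdf1-202, 2012 nt in Ythdf2-203 and 2877 nt in Ythdf3-202. Shared peaks reached only its first 176 nt in Ythdf2 and Ythdf3. Of the CDS, 86.4%, 67.5% and 75.3% were covered. The 5′ UTR peak of Ythdf3 lay over exon 1 at 16183166-16183473 in replicate 1 (2.69) and 16183233-16183472 in replicate 2 (1.88), with no counterpart in Ythdf1 or Ythdf2.

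The motif was counted on the mRNA strand of the representative transcripts, those with the longest CDS. Ythdf1 held 1 GGACT, in its peak. Ythdf2 held 5, of which 3 lay in shared peaks, and Ythdf3 held 1, in its peak. The opposite strand of the same mRNAs held 2, 4 and 1. The shorter GGAC, which is contained in GGACT, was denser inside than outside shared peaks over the whole mRNA of all 3 paralogs. It occurred at 6.57 sites per kb inside and 3.99 outside in Ythdf1, 9.62 and 2.16 in Ythdf2, and 5.11 and 1.26 in Ythdf3. The peaks are mostly coding, and the CDS as a whole held 7.38 GGAC per kb in Ythdf1, more than its peak, 6.90 in Ythdf2 and 4.47 in Ythdf3, against 4.90 over all representative CDS. A GGACT is also common in exons of this size, with 40 of 45 internal coding exons of 1521 to 1599 nt (88.9%) holding at least 1 and all 45 holding GGAC. In the first 200 nt of last exons, 23.1% of 18980 held GGACT and 60.2% GGAC. A motif match is a description of the sequence and does not place a methylated base.

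Ythdc1 (ENSMUSG00000035851, chr5:86804221-86836659, plus strand), the nuclear reader, had the most peaks of the group. Its peaks spread from the first to the last exon, and the 7 shared peaks of each replicate formed 8 shared intervals. The replicate 1 peak at 86829096-86829535 counts with both 86828780-86829124 and 86829235-86829569 of replicate 2. Of the 9950 genes with a shared peak, 98.1% had fewer shared intervals and 1.22% more, with a median of 2 and a maximum of 18. By the lower of both values the strongest peak lay over exon 4, at 86816900-86817355 in replicate 1 (6.17) and 86816907-86817337 in replicate 2 (3.29), and covered all 427 nt of this coding exon. The long noncoding gene Gm43055 (chr5:86728906-86817106, the same strand) overlaps this and the single-replicate peaks, and which gene the fragments came from cannot be told apart there.

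The first exon of Ythdc1 had a peak at 86804232-86804627 in replicate 1 (5.43) and 86804266-86804591 in replicate 2 (2.44). It lies mostly in the 5′ UTR of Ythdc1-202 and Ythdc1-203, since the transcript with the longest CDS, Ythdc1-201, is annotated from its start codon on. The stop codon peak lay at 86835599-86836015 in replicate 1 (5.96) and 86835651-86835995 in replicate 2 (3.01). Here 225 nt of the last exon are coding, and all of them lay under the peak together with 107 and 87 nt of 3′ UTR. Exon 16, just before, had a peak of 2.82 in replicate 1 and 1.37 in replicate 2.

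A group of Ythdc1 peaks behind exon 11 lay outside the exons of Ythdc1-201. A peak over the whole of exon 11 (86827922-86828299, 2.35, and 86827922-86828302, 2.07) ran past both ends of the exon. It was followed by peaks at 86828793-86829001 (1.65) and 86829096-86829535 (2.53) in replicate 1, and at 86828780-86829124 (2.99) and 86829235-86829569 (3.94) in replicate 2. These bases are intronic in Ythdc1-201. They are exonic in Ythdc1-207, annotated as a retained intron, and most of them also in Ythdc1-208, annotated as a target of nonsense-mediated decay. They are among the 5 reader pairs with a higher value in replicate 2. The midpoints of the exonic Ythdf and Ythdc2 peaks all lay in exons of the transcript with the longest CDS. Peaks that touch no exon are left out here, and Ythdf3 had such peaks in both replicates.

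**Figure D4:**
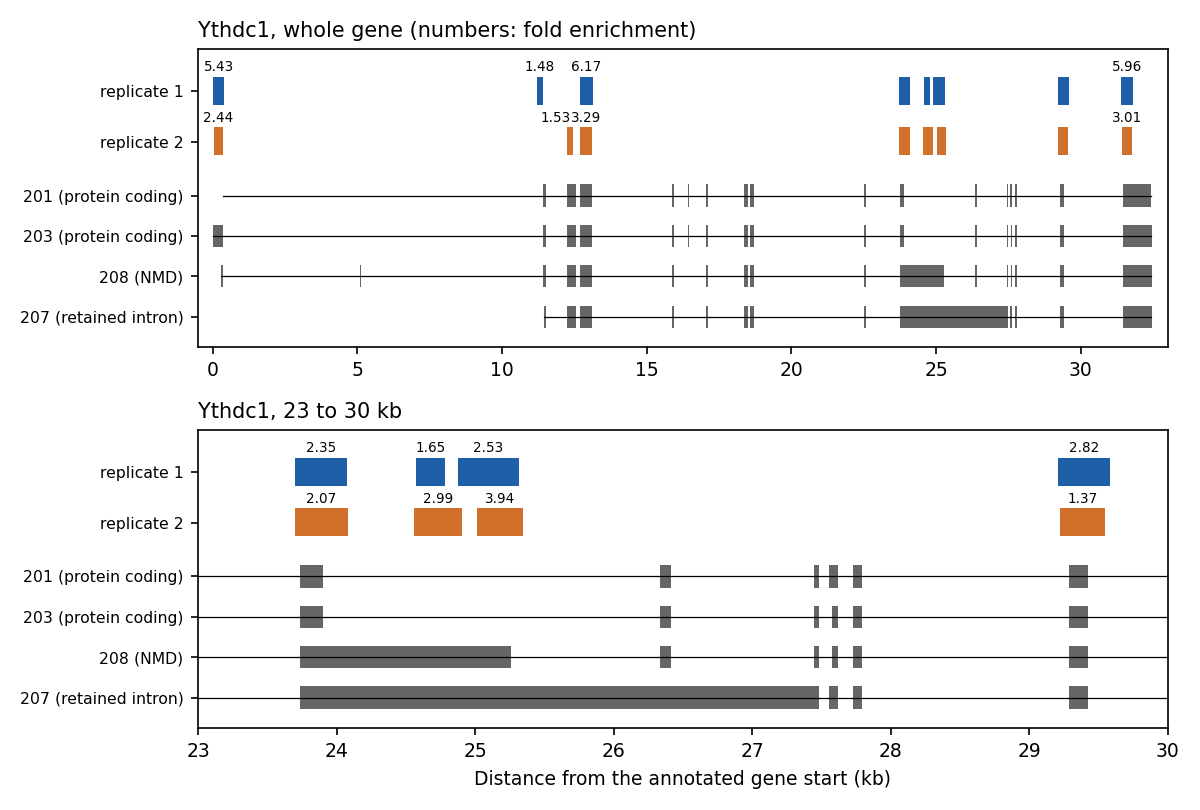
Peaks of Ythdc1 in kb from the annotated gene start, over the whole gene (top) and over the part around exons 11 to 16 (bottom). Blue and orange bars are peaks of replicates 1 and 2 with their fold enrichment, and grey boxes are exons of 4 annotated transcripts (NMD, nonsense-mediated decay). The peaks of 1.65 and 2.53 in replicate 1 and of 2.99 and 3.94 in replicate 2 lie over the extended exon of Ythdc1-208 and Ythdc1-207.

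No GGACT was found on the mRNA strand of Ythdc1-201. It held 9 GGAC, of which 4 lay in shared peaks, 3.74 per kb inside and 2.64 per kb outside. The GGAC of the strongest peak (chr5:86817163-86817187, plus strand) and that of the stop codon peak (chr5:86835859-86835883, plus strand), which lies 37 nt before the end of the CDS, are shown with GGAC in capitals.
Ythdc1 exon 4: aagaggatgaGGACgaggatgaaga
Ythdc1 exon 17: tatgtgatcgGGACagagaccgagg

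The single-replicate reader peaks were both in Ythdc1 and both weak. The replicate 1 peak at 86815435-86815634 (1.48) had 6 of its 200 nt in an exon. The replicate 2 peak at 86816464-86816663 (1.53) lay in coding exon 3. Their fold enrichment was above that of 4.44% of the peaks of replicate 1 and 12.6% of the peaks of replicate 2, respectively.

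Ythdc2 (ENSMUSG00000034653, chr18:44827746-44889724, plus strand) had 1 shared peak, over coding exon 28. It lay at 44886130-44886439 in replicate 1, with a fold enrichment of 1.69, and at 44886223-44886422 in replicate 2, with 1.70. As raw values these were the closest of the strongest peaks of the reader genes, with a mean log2 value of 0.76 ± 0.01 (SD, n = 2). Relative to the list medians they were not, at 0.585 times the median in replicate 1 and 0.771 in replicate 2. Ythdf2 and Ythdf3 moved less on that scale. The peak stood at percentile 9.63 of the list of replicate 1 and 21.7 of that of replicate 2. Ythdc2 also had the lowest strongest peak in both replicates. Its distance below each other YTH gene was larger than the SD of either gene. The shared bases covered 4.22% of its CDS and 2.54% of its mRNA of 7215 nt. Of its 3 GGACT motifs, 2 lay in exon 28.

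Against all 9950 genes with a shared exonic peak, the YTH genes were placed by the lower value of their strongest shared peak. This value was 3.29 for Ythdc1 (percentile 76.9), 3.24 for Ythdf2 (75.6), 3.06 for Ythdf3 (69.0), 2.85 for Ythdf1 (59.6) and 1.69 for Ythdc2 (8.33). The median over all these genes was 2.65, with quartiles of 2.14 and 3.23. By replicate 1 alone Ythdf1 stood at percentile 93.2, and by replicate 2 alone at 56.1. Over all 16 exonic peaks the median fold enrichment was 2.67 in replicate 1, where 6 lay above the median of the list, and 2.64 in replicate 2, where 9 did.

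**Figure D5:**
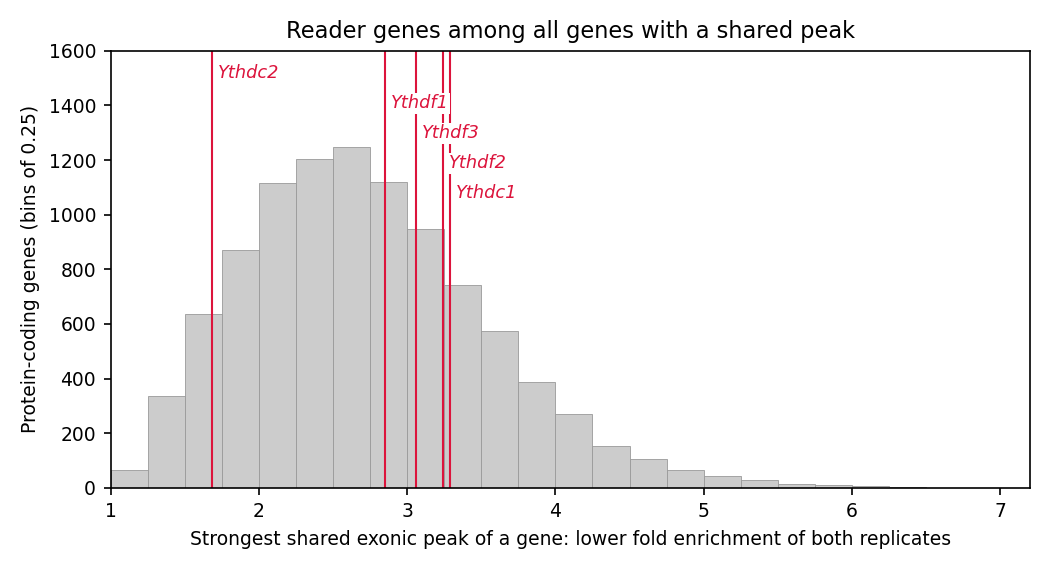
Number of protein-coding genes (bars, bins of 0.25) by the lower fold enrichment of their strongest shared exonic peak, for the 9950 genes that had one. Red lines mark the reader genes. Ythdc2 lies at 1.69, in the low tail, and the other 4 between 2.85 and 3.29, above the median of 2.65.

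The IGF2BP genes differ from the YTH genes in holding no exonic peak. Igf2bp1 (ENSMUSG00000013415, chr11:95957163-96005940, minus strand) has an mRNA of 8378 nt with 10 GGACT motifs, all in its 3′ UTR of 6337 nt. Igf2bp2 (ENSMUSG00000033581, chr16:22059009-22163299, minus strand) has 5 GGACT motifs in 3899 nt, and Igf2bp3 (ENSMUSG00000029814, chr6:49085223-49214957, minus strand) has 2 in 4345 nt. Their longest internal exons are 282, 252 and 282 nt, beside 293 nt in Ythdc2 and 427 nt in Ythdc1. The peak of Ythdc2 lay in another exon, exon 28. Whether exon length bears on the lack of peaks was not tested. The files hold no RNA levels, and too little RNA to call a peak cannot be told apart from RNA without the mark.

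Genes whose peaks lie along the CDS most like those of each Ythdf gene were looked up among 8537 genes with a shared peak in the CDS. Likeness was Pearson's r between the log2 fold enrichment profiles over 50 equal bins of the CDS, a description in which neighbouring bins share peaks. The most alike were Rgmb (0.974), Lrrc4c (0.946) and Zfp1 (0.941) for Ythdf1, Mgat2 (0.935), Nsrp1 (0.921) and Phyhip (0.919) for Ythdf2, and Zfp846 (0.991), Trappc5 (0.991) and Prr16 (0.988) for Ythdf3. Between Ythdf1 and Ythdf3, r was 0.714, which is rank 127 of 8536 for Ythdf1 and rank 348 for Ythdf3. Between Ythdf1 and Ythdf2 it was 0.586, rank 255 for Ythdf1 and rank 1030 for Ythdf2. Between Ythdf2 and Ythdf3 it was 0.671, which is rank 559 for Ythdf2 and rank 448 for Ythdf3.

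The genes of the same pathway were counted by the same rule, beside the 45.5% of all protein-coding genes. All 12 writers and erasers had a shared exonic peak. Wtap, a subunit of the methyltransferase complex, reached 4.57 in replicate 1 and 3.48 in replicate 2, while Mettl3, the catalytic subunit, reached 1.78 and 1.64. Of 13 other proteins reported to bind m6A RNA, 11 had one, all but Lrpprc and Elavl1. Prrc2c reached 6.62 and 3.69. Of 11 genes of the CCR4-NOT complex, which Ythdf2 recruits, 9 had one, all but Cnot6l and Cnot7, and Cnot4 reached 4.86 and 3.79. Of 9 decapping and stress granule genes, 6 had one, all but Edc4, Xrn1 and Tia1, and the helicase Ddx6 reached 4.66 and 3.75. The median of the lower value over the genes with a shared peak was 2.50, 2.33, 2.59 and 2.76 for the 4 lists, near the 2.65 of all genes.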

How the data were processed

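m6A-seq peak lists of m6A IP replicates 1 and 2 were used. By the methods, the authors trimmed reads with Cutadapt and Trimmomatic, aligned them to mm10 with TopHat (TopHat2 2.0.9 per the submitters' processing notes, a different version per the methods), kept unique reads and called peaks with MACS2 for each replicate against its own input, with a false discovery rate cutoff and duplicates kept, which can raise peaks built on few molecules. The deposited values are the start, end and fold enrichment of each peak, a linear ratio. The lists carry no strand, so peaks were assigned by position. Depth is unknown.

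Peaks were overlapped (at least 1 bp, checked with bedtools 2.31.1) with exons of GENCODE M21 on GRCm38.p6, whose chromosome sequences are those of mm10. Coordinates count both ends. Regions were read on the transcript with the longest CDS, and 98.2% of 21853 start codons read ATG. Ythdf proteins were translated from these CDS, in place of the RefSeq proteins planned, and aligned globally (BLOSUM62, gap penalties 11 and 1, Biopython 1.88). Sequences come from the GRCm38.p6 genome. Python 3.11.15, pandas 2.3.3 and numpy 2.4.6 were used, and the scripts were tested on simulated data. With a single pair of lists no test between groups exists, and values are descriptions. Members and lists were chosen with earlier results of these data known. All 8 genes of the rule are named, with the 3 genes of highest r per Ythdf gene, and genes of the other lists were picked as examples after their values were seen.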

Additional observations from a re-analysis of the deposited data

Results flagged for a closer look

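Peaks inside introns of the reader genes do not enter the exonic comparisons, and some of them were shared. Ythdf3 had a shared intronic peak at chr3:16198446-16198966 in replicate 1, with a fold enrichment of 5.38, and at 16198667-16198902 in replicate 2, with 2.47. It lay 4221 and 4285 bp from the nearest exon of the gene, and in replicate 1 it was stronger than every exonic peak of Ythdf3. Igf2bp3, which had no exonic peak, had a pair of shared intronic peaks on chromosome 6. They lay at 49096829-49097130 (3.51) and 49097768-49098207 (3.06) in replicate 1, and at 49096786-49097015 (3.19) and 49098030-49098421 (3.12) in replicate 2. Their distance from the nearest exon of Igf2bp3 was 2530 to 3774 bp. A further 3 intronic peaks appeared in replicate 1 alone, 1 in Ythdf3 (2.78) and 2 in Igf2bp3 (5.19 and 4.87). The lists carry no strand, and whether these peaks belong to the host gene was not tested.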

How the results depend on the processing

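Over 15 results and 66 alternatives, 57 values stayed the same within the set limits and 9 moved. All 5 YTH genes had a shared peak under each alternative that used both lists, except when peaks under 2-fold were left out. Ythdc2 then dropped out and 4 were left. With 1 list left out no peak can be shared, and all 5 had an exonic peak in the remaining list. The share of protein-coding genes with a shared peak (45.5%) moved to 43.0% with an overlap of 50% of both peaks and 40.8% with midpoints within 100 bp. It was 36.8% without peaks under 2-fold, 44.0% with the midpoint in an exon and 44.3% with exons of the representative transcript. With 1 list left out the measure becomes the share of genes with any exonic peak in the other list. This was 49.5% in replicate 2 and 54.4% in replicate 1. The shared percent of the reader peaks was 100.0% in replicate 2 without peaks under 2-fold, which left 12 peaks, while that of replicate 1 was then 84.6% of 13, and 100.0% in replicate 1 with the midpoint in an exon. The strongest shared peak of each Ythdf gene kept its fold enrichment under the 4 alternatives run for it (overlap of 50%, midpoints within 100 bp, merged peaks and midpoint in an exon). The value of a listed peak is fixed, so these alternatives could change only which peak was chosen. They say nothing of how exact the value is, although they count among the 57. The peak stayed in the CDS under both alternatives for its place. No paired analysis was possible because the input samples enter only through the authors' peak calling and no groups were compared. With 2 replicates and no read counts, differences between peaks were limited by the spread between the lists, and the lack of a peak says nothing of a site below the caller's threshold.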
